A study of Mus musculus with 8 samples.

Results

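The genes described here make and sense the prostanoids and leukotrienes of the aortic wall. They were 10 genes chosen by name, namely Ptgs1, Ptgs2, Ptgis, Ptges, Ptgds, Tbxas1, Ptgir, Tbxa2r, Alox5 and Alox5ap. Each was taken as the locus that carries its gene name, or, where several loci carried it, as the one with the most counts, and all 10 were found among the 48607 loci of the gene table. The table came from RNA-seq of whole aortas in 8 libraries, from mice that all lacked ApoE and all received a Western diet for 12 weeks. The titles name 5 libraries ApoE-/- (1 to 5) and 3 libraries NPRC-/-ApoE-/- (1 to 3), the latter from littermates that also lacked the natriuretic peptide receptor C in every tissue through a CRISPR frameshift in Npr3, made in C57BL/6 mice. The methods give an age at purchase for bought ApoE-/- males, but not the age of these littermates when the diet began.

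A second label does not match these titles. The genotype entry matched the title in 4 libraries, which were ApoE-/- 1, 2 and 3 and NPRC-/-ApoE-/- 3. ApoE-/- 4 and 5 were entered as NPRC-/-ApoE-/-, and NPRC-/-ApoE-/- 1 and 2 were entered as ApoE-/-. Both labels give 5 libraries against 3, and Npr3 itself did not separate them. Its level was 1.69, 0.93, 0.62, 1.01 and 1.67 FPKM (fragments per unit of transcript length and of sequencing depth) in ApoE-/- 1 to 5 and 1.18, 1.39 and 1.13 FPKM in NPRC-/-ApoE-/- 1 to 3. A frameshift need not lower a transcript, so this level does not check the labels. Groups are therefore given by title, and the comparisons of the 10 genes are repeated by genotype entry. The total count per library was 62969165 to 86693276.

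Prostanoids are made from arachidonic acid in successive steps. Cyclooxygenases (Ptgs1 and Ptgs2) produce a common precursor, which terminal synthases turn into prostacyclin (Ptgis), prostaglandin E (Ptges), prostaglandin D (Ptgds) or thromboxane (Tbxas1). Prostacyclin relaxes smooth muscle and restrains platelets through its receptor Ptgir, and thromboxane constricts vessels and activates platelets through Tbxa2r. Leukotrienes start from the same acid through the lipoxygenase Alox5 and its activating membrane protein Alox5ap, mostly in myeloid cells.

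By title, the aortas titled NPRC-/-ApoE-/- held more Ptgis RNA and less Tbxas1 and Alox5ap RNA than those titled ApoE-/-. The means of Ptgs2 and Ptges were also lower, with unadjusted p-values of 0.061 and 0.055 in edgeR and 0.021 and 0.035 in DESeq2. Ptgis was 1.97-fold higher and Tbxas1 2.04-fold lower, and for these 2 genes the groups did not overlap. Of all tested loci, 2.88% were higher and 4.37% lower without overlap. Ptgs1 and Alox5 differed by less than their spread. No gene passed an adjusted p of 0.05 in edgeR. Ptgis and Tbxas1 did in DESeq2, for which the share of all loci passing is not given here. By genotype entry none of the 10 genes passed an unadjusted p of 0.05, against 1.31% of all tested loci.

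The sequences just upstream of 4 of these genes are shown because Ptgs2, Ptges and Ptgir varied together across the libraries, while Ptgs1, the second cyclooxygenase, varied least. Tbxas1 varied with the first 3 as well and is not shown. Ptgs1 was not wholly apart from them, with a Pearson r of 0.72 to Ptgir, 0.55 to Ptgs2 and 0.50 to Ptges. Each is the 250 bases before the RefSeq start in GRCm38.p6, read in the direction of transcription, with capitals for GGGCGG (the GC box) and TTGCGCAA (the palindrome bound by C/EBP factors). They lie at chr1:150099781-150100030 on the plus strand for Ptgs2, chr2:30903298-30903547 on the minus strand for Ptges, chr7:16906240-16906489 on the plus strand for Ptgir and chr2:36230176-36230425 on the plus strand for Ptgs1.
Ptgs2: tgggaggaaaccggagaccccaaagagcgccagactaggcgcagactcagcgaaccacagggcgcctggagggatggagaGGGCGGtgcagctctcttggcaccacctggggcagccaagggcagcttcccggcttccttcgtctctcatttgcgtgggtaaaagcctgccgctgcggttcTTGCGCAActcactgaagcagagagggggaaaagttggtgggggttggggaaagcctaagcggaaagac
Ptges: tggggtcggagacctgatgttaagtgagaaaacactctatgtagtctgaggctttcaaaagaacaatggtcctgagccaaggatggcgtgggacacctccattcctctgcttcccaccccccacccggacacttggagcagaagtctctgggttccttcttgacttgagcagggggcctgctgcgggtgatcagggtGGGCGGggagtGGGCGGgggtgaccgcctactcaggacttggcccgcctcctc
Ptgir: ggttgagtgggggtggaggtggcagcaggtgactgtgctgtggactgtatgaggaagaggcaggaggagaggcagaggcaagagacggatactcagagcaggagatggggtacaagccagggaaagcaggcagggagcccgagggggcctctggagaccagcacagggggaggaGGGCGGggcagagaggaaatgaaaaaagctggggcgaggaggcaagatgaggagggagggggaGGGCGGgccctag
Ptgs1: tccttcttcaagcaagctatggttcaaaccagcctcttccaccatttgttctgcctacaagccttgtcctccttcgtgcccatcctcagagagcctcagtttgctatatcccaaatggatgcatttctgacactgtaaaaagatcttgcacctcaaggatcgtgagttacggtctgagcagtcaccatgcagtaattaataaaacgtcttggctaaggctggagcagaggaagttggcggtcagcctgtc

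Both strands of these windows were searched for the TATA box (TATAAA), the CCAAT box, the GC box (GGGCGG), the cyclic AMP response element (TGACGTCA), the E-box (CACGTG) and the C/EBP palindrome (TTGCGCAA), none of which contains another. In Ptgs2, GGGCGG lay 170 to 165 bases and TTGCGCAA 69 to 62 bases before the start. Ptges held GGGCGG at 53 to 48 and at 42 to 37 bases, and Ptgir at 76 to 71 and at 13 to 8 bases before the start. Ptgs1 held none of the 6 motifs. Its window precedes the annotated gene but lies inside the counted locus, which starts earlier, at chr2:36227399. GGGCGG was found in 32.7% and TTGCGCAA in 0.164% (54) of 32851 RefSeq promoters of the same length, and 8 of the 10 genes had an entry in that table. Of the others with an entry, Alox5 held GGGCGG, Tbxas1 held TATAAA at 11 to 6 bases before the start and, on the other strand, at 13 to 8 bases (12.4% of promoters), 1 of 2 Tbxa2r windows held CCAAT (33.8%), and Ptgds held none. TGACGTCA (1.55%) and CACGTG (6.02%) were found in no window of these genes.

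The 2 cyclooxygenases behaved differently. Ptgs1 encodes the constitutive enzyme, at chr2:36227399-36252272 on the plus strand (GRCm38). Its level was 4.27, 5.15, 4.86, 5.3 and 4.15 FPKM in ApoE-/- 1 to 5 and 5.46, 4.6 and 4.46 FPKM in NPRC-/-ApoE-/- 1 to 3. The groups overlapped over most of their range, with NPRC-/-ApoE-/- 1 the highest of all libraries, and its highest library was only 1.32 times the lowest, the smallest ratio of the 10 genes. The log2 fold change by title was 0.04 (SE 0.15, 95% interval -0.31 to 0.39, adjusted p = 0.93). A second, shorter locus with the same name on the same strand (chr2:36253820-36258803) held 0 to 1008 counts per library and was not added.

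Ptgs2, the inducible cyclooxygenase, lies at chr1:150100031-150108227 on the plus strand, directly after the upstream sequence shown. Its level was 8.12, 19.9, 19.9, 10.2 and 5.23 FPKM in ApoE-/- 1 to 5 and 9.89, 4.08 and 3.32 FPKM in NPRC-/-ApoE-/- 1 to 3. ApoE-/- 2 and 3 were the highest and NPRC-/-ApoE-/- 2 and 3 the lowest, but NPRC-/-ApoE-/- 1 exceeded ApoE-/- 1 and 5. The means were 12.7 ± 6.83 (SD, n = 5) and 5.76 ± 3.59 FPKM (SD, n = 3). In edgeR, the log2 fold change was -1.15 (SE 0.54, 95% interval -2.37 to 0.07, adjusted p = 0.38). The unadjusted p of 0.061 became 0.020 without ApoE-/- 5 and 0.016 without NPRC-/-ApoE-/- 1 in the same edgeR test, but 0.18 without NPRC-/-ApoE-/- 2 and 0.19 without NPRC-/-ApoE-/- 3. With each library left out in turn, the log2 fold change ran from -1.76 to -0.88. By genotype entry the log2 fold change was -0.96 (adjusted p = 1.00). The ratio of Ptgs2 to Ptgs1 was 1.26 to 4.09 in libraries titled ApoE-/- and 0.744 to 1.81 in those titled NPRC-/-ApoE-/-. Only NPRC-/-ApoE-/- 2 and 3 held less Ptgs2 than Ptgs1.

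**Figure D1:**
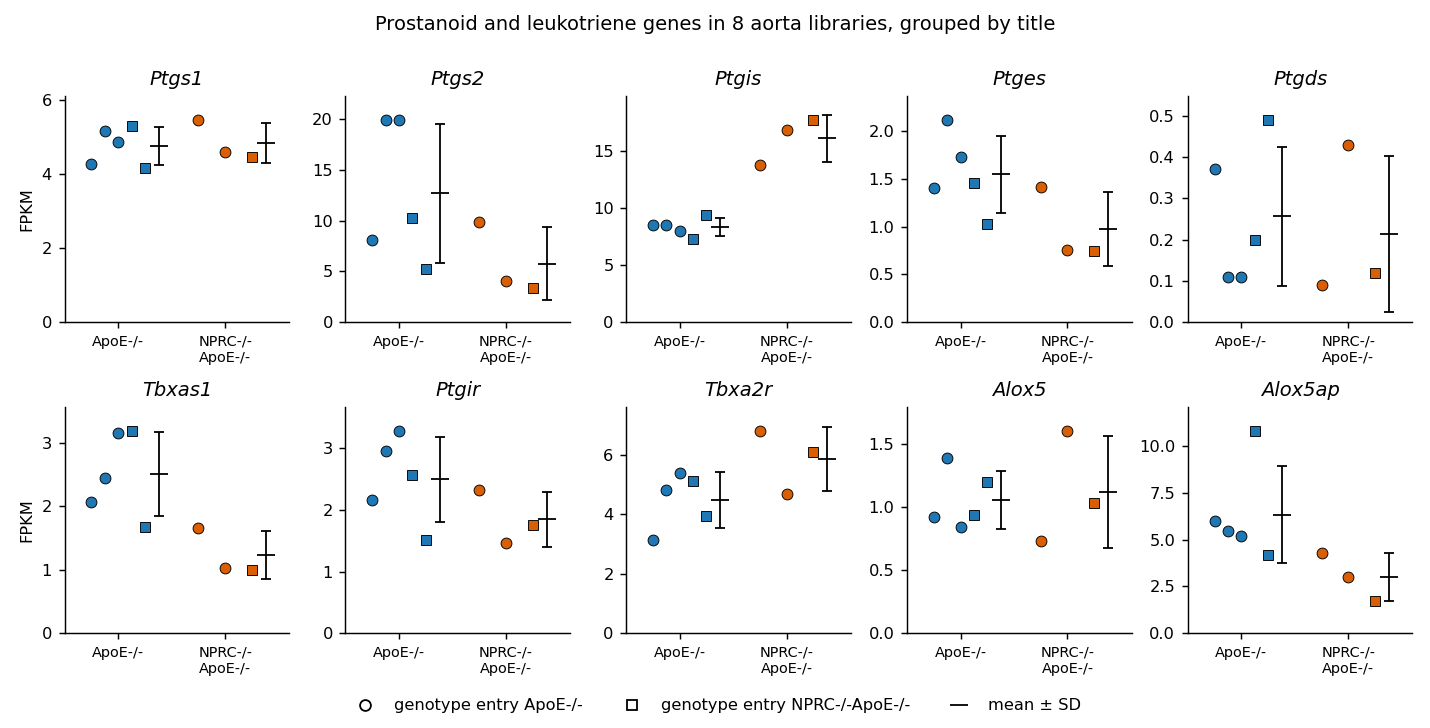
FPKM of the 10 genes (y axis, linear from 0) in the 8 libraries grouped by title (x axis), with circles for a genotype entry of ApoE-/- and squares for NPRC-/-ApoE-/-, and mean ± SD beside the points. The 3 orange points of Ptgis, 13.8 to 17.8 FPKM, lie above all 5 blue points, 7.34 to 9.38 FPKM, and those of Tbxas1 lie just under the blue points.

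Among the terminal synthases, Ptgis (prostacyclin synthase) had the smallest p of the 10 genes. Its level was 8.54, 8.58, 7.97, 7.34 and 9.38 FPKM in ApoE-/- 1 to 5 and 13.8, 16.9 and 17.8 FPKM in NPRC-/-ApoE-/- 1 to 3. Every library titled NPRC-/-ApoE-/- was above every library titled ApoE-/-. The means were 8.36 ± 0.761 (SD, n = 5) and 16.2 ± 2.09 FPKM (SD, n = 3). The difference was 0.98 on the log2 scale (SE 0.14, 95% interval 0.66 to 1.30), with an unadjusted edgeR p of 6.8e-05 and an adjusted p of 0.13. At 1.97-fold it was just short of the 2-fold limit. When each library was left out in turn, the log2 fold change was 0.88 to 1.1, and the adjusted p reached 0.049 without NPRC-/-ApoE-/- 1. By genotype entry the same gene had a log2 fold change of 0.09 (95% interval -0.75 to 0.93, adjusted p = 1.00), with libraries of 7.97 to 16.9 FPKM entered as ApoE-/- and 7.34 to 17.8 FPKM entered as NPRC-/-ApoE-/-. In the 4 libraries whose labels match, Ptgis was 7.97 to 8.58 FPKM in the 3 ApoE-/- aortas and 17.8 FPKM in the single NPRC-/-ApoE-/- aorta, which allows no test.

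The summed FPKM of 8 smooth muscle markers moved with Ptgis. It was 1317 to 1760 in libraries titled ApoE-/- and 1706, 2429 and 2918 in NPRC-/-ApoE-/- 1 to 3. All 8 markers had a higher mean by title, 7 of them with an unadjusted p under 0.05, where 6.51% of all tested loci were higher with such a p. Their median log2 fold change was 0.64, and none was at 0 in any library. Grouped by genotype entry, the sums were 1317 to 2429 against 1376 to 2918, the median log2 fold change was 0.17, and none of the 8 had an unadjusted p under 0.05. NPRC-/-ApoE-/- 1 lay within the smooth muscle range of the libraries titled ApoE-/- (1706 against up to 1760) and held 13.8 FPKM of Ptgis against their 9.38 at most. In RNA of whole tissue, fewer cells of a type and less RNA per cell cannot be told apart, and the part of cell composition in these differences was not tested. The Ptgis locus runs over chr2:167190560-167252275 on the minus strand, beyond its gene at chr2:167191805-167240604, and joins 3 annotated with 7 assembled transcripts. It overlaps 1110018N20Rik and Gm14291 on the other strand. Whether the counting used strand is not given in the sources used here, so antisense reads cannot be told apart from those of the gene.

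Tbxas1 (thromboxane synthase) differed in the opposite direction. Its level was 2.07, 2.45, 3.15, 3.18 and 1.67 FPKM in ApoE-/- 1 to 5 and 1.66, 1.03 and 1.00 FPKM in NPRC-/-ApoE-/- 1 to 3. The groups did not overlap, although ApoE-/- 5 and NPRC-/-ApoE-/- 1 were almost equal. The means were 2.50 ± 0.664 (SD, n = 5) and 1.23 ± 0.373 FPKM (SD, n = 3). In edgeR the log2 fold change was -1.03 (SE 0.30, 95% interval -1.70 to -0.35), with an unadjusted p of 0.0073 and an adjusted p of 0.27. By genotype entry it was -0.06 (95% interval -1.06 to 0.94, adjusted p = 1.00). The locus at chr6:38875404-39084585 on the plus strand overlaps Hipk2, Gm42962 and 1700025N23Rik on the other strand.

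Ptges (the inducible prostaglandin E synthase) was 1.41, 2.12, 1.73, 1.46 and 1.03 FPKM in ApoE-/- 1 to 5 and 1.42, 0.76 and 0.75 FPKM in NPRC-/-ApoE-/- 1 to 3. NPRC-/-ApoE-/- 2 and 3 were the lowest of all libraries, and NPRC-/-ApoE-/- 1 lay within the other group. The log2 fold change by title was -0.66 (SE 0.30, 95% interval -1.33 to 0.02, adjusted p = 0.37). Its unadjusted p of 0.055 became 0.018 without ApoE-/- 5 and 0.010 without NPRC-/-ApoE-/- 1 in the same edgeR test, but 0.19 without NPRC-/-ApoE-/- 2 and 0.17 without NPRC-/-ApoE-/- 3. By genotype entry the log2 fold change was -0.43. The RefSeq start of Ptges that bounds the sequence shown lies inside its longer GENCODE gene (chr2:30889471-30929863, minus strand), where a small plus-strand locus of the same name held 0 to 0.24 FPKM. Ptgds (the lipocalin-type prostaglandin D synthase) had the lowest level of the 10 genes, at 0.37, 0.11, 0.11, 0.20 and 0.49 FPKM in ApoE-/- 1 to 5 and 0.09, 0.43 and 0.12 FPKM in NPRC-/-ApoE-/- 1 to 3. It was the only one of the 10 genes not tested, because no library reached 1 FPKM. With no filter its log2 fold change was -0.24 (SE 0.63, adjusted p = 0.91).

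The makeup of the 4 terminal synthases differed between the titled groups. Ptgis made up 68.9, 64.7, 61.5, 60.3 and 74.6% of their summed FPKM in ApoE-/- 1 to 5 and 81.3, 88.4 and 90.5% in NPRC-/-ApoE-/- 1 to 3. This sum leaves out 6 other prostanoid synthases, among them Ptges3 (mean 13.4 FPKM, Ptgis 11.3) and Hpgds (2.55, Ptgds 0.24). The share of Tbxas1 was 13.3 to 26.1% in libraries titled ApoE-/- and 5.09 to 9.78% in those titled NPRC-/-ApoE-/-. The ratio of Ptgis to Tbxas1, the synthases with opposed products, was 2.31 to 5.62 against 8.31, 16.4 and 17.8. Neither share nor the ratio overlapped between the titled groups, and all of them overlapped by genotype entry. By title, Ptgis alone was higher and Tbxas1 alone lower without overlap, so the ratio had to be apart. It is no further result, and the shares draw on the same values. Ptges took 8.19 to 16.0% against 3.82 to 8.37%, and Ptgds 0.53 to 3.9% over all 8 libraries. These are shares of RNA per length and are given without a test. They depend on the length used, since the counts of Ptgis stand for a far longer transcript than annotated. With counts per kilobase of the longest annotated coding transcript, chosen after seeing the data, Ptgis made up 89.0 to 94.6% in libraries titled ApoE-/- and 96.3 to 98.3% in those titled NPRC-/-ApoE-/-, and Tbxas1 4.07 to 9.33% and 1.34 to 2.82%. The share of Ptges, which overlapped by FPKM, was then 0.826 to 1.81% against 0.332 to 0.791%. It no longer overlapped by title, so this separation depends on the length used, and it still overlapped by genotype entry. The ratio of Ptgis to Tbxas1 was then 9.53 to 23.2 against 34.2 to 73.2. A fixed length per gene scales this ratio about alike in all libraries, so its overlap under either label could not change. The share of Ptgis could only rise on this scale, since it had the largest excess of counted over annotated length.

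**Figure D2:**
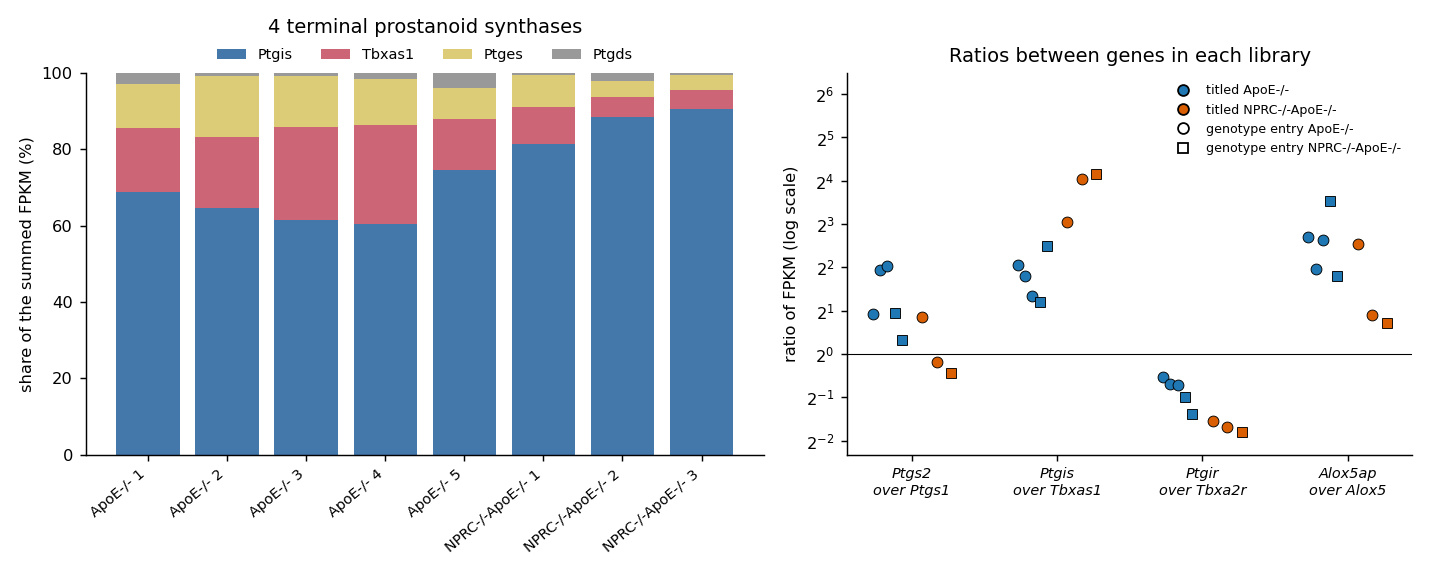
Left, share of the summed FPKM of the 4 terminal synthases (y axis, %) in each library. Right, ratio of FPKM of 4 gene pairs per library (log axis, line at equal levels), coloured by title and shaped by genotype entry. The 3 libraries titled NPRC-/-ApoE-/- have the highest Ptgis to Tbxas1 ratios, 8.31 to 17.8, and the lowest Ptgir to Tbxa2r ratios, 0.288 to 0.343. The former follows from the levels of Ptgis and Tbxas1, each apart by title.

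The receptors of prostacyclin and thromboxane overlapped between the titled groups. Ptgir, the prostacyclin receptor at chr7:16906490-16910905 on the plus strand, was 2.17, 2.96, 3.28, 2.57 and 1.51 FPKM in ApoE-/- 1 to 5 and 2.33, 1.46 and 1.76 FPKM in NPRC-/-ApoE-/- 1 to 3. NPRC-/-ApoE-/- 2 was the lowest library and ApoE-/- 5 the next. The log2 fold change by title was -0.43 (SE 0.29, 95% interval -1.09 to 0.24, adjusted p = 0.54). Without ApoE-/- 5 it was -0.57, with an unadjusted edgeR p of 0.038, and without NPRC-/-ApoE-/- 2 it was -0.25, with an unadjusted edgeR p of 0.47. Tbxa2r, the thromboxane receptor at chr10:81328731-81335172 on the plus strand, was 3.15, 4.81, 5.4, 5.12 and 3.93 FPKM in ApoE-/- 1 to 5 and 6.8, 4.67 and 6.11 FPKM in NPRC-/-ApoE-/- 1 to 3. NPRC-/-ApoE-/- 1 and 3 were the highest of all, and NPRC-/-ApoE-/- 2 lay within the other group. Its log2 fold change was 0.40 (SE 0.24, 95% interval -0.14 to 0.93, adjusted p = 0.48). In each library Tbxa2r exceeded Ptgir. The ratio of Ptgir to Tbxa2r was 0.384 to 0.689 in libraries titled ApoE-/- and 0.288 to 0.343 in those titled NPRC-/-ApoE-/-, without overlap, and it overlapped by genotype entry (0.313 to 0.689 against 0.288 to 0.502). By genotype entry the log2 fold changes were -0.29 for Ptgir and 0.06 for Tbxa2r.

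The 2 genes of leukotriene synthesis did not move together. Alox5ap (the activating protein, at chr5:149264691-149290231 on the plus strand) was 6.01, 5.46, 5.20, 10.8 and 4.16 FPKM in ApoE-/- 1 to 5 and 4.28, 3.01 and 1.70 FPKM in NPRC-/-ApoE-/- 1 to 3. ApoE-/- 4 stood highest and NPRC-/-ApoE-/- 3 lowest, and the groups overlapped only because NPRC-/-ApoE-/- 1 exceeded ApoE-/- 5. The log2 fold change by title was -1.09 (SE 0.39, 95% interval -1.96 to -0.21), with an unadjusted edgeR p of 0.020 and an adjusted p of 0.31. The unadjusted p rose to 0.054 without NPRC-/-ApoE-/- 2 and to 0.078 without NPRC-/-ApoE-/- 3, and without ApoE-/- 4 the log2 fold change was -0.76. By genotype entry the direction turned, at 0.26 (adjusted p = 1.00), with the highest and the lowest library both entered as NPRC-/-ApoE-/-. Alox5 (the lipoxygenase, at chr6:116410077-116461178 on the minus strand) was 0.92, 1.39, 0.84, 0.94 and 1.2 FPKM in ApoE-/- 1 to 5 and 0.73, 1.6 and 1.03 FPKM in NPRC-/-ApoE-/- 1 to 3. Both its lowest and its highest value came from libraries titled NPRC-/-ApoE-/-. The log2 fold change was 0.11 (SE 0.26, 95% interval -0.49 to 0.71, adjusted p = 0.88), and it turned to -0.02 by genotype entry. Alox5ap exceeded Alox5 in every library, by 3.47 to 11.5 times in those titled ApoE-/- and 1.65 to 5.86 times in those titled NPRC-/-ApoE-/-.

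Macrophage markers moved with Tbxas1 and Alox5ap. The summed FPKM of 8 macrophage markers was 283, 471, 681, 664 and 229 in ApoE-/- 1 to 5 and 314, 156 and 122 in NPRC-/-ApoE-/- 1 to 3. All 8 had a lower mean by title, 4 with an unadjusted p under 0.05, and the median log2 fold change was -1.03, close to that of Tbxas1. Over all tested loci, 7.13% were lower with such a p, a share that stands beside each marker list of this paragraph. Grouped by genotype entry, their median was -0.16, and none of the 8 had an unadjusted p under 0.05. None of them was at 0 in any library. ApoE-/- 3 and 4 were the 2 highest libraries for the macrophage sum and for Tbxas1, and NPRC-/-ApoE-/- 2 and 3 the 2 lowest for both and for Alox5ap. At the high end Alox5ap did not follow, since ApoE-/- 3, with the highest macrophage sum, held 5.2 FPKM and ApoE-/- 1 held 6.01. Of the platelet markers, whose cells are known to carry Tbxas1, 4 of 6 were tested, all 4 with a lower mean and none with an unadjusted p under 0.05, and the sum was 10.1 to 17.9 against 8.1 to 12.4 FPKM. Fibroblast markers summed to 985, 1280, 1715, 1607 and 802 FPKM in ApoE-/- 1 to 5 and 979, 527 and 695 FPKM in NPRC-/-ApoE-/- 1 to 3. All 8 were lower, 2 with an unadjusted p under 0.05. Here too ApoE-/- 3 and 4 were highest and NPRC-/-ApoE-/- 2 and 3 lowest. The likeness to Tbxas1 was thus not particular to macrophage markers. Mast cell markers, whose cells are known to express Alox5ap and Alox5, summed to 7.99 to 21.8 against 3.75 to 5.10 FPKM (5 of 7 tested, all 5 lower, 4 with an unadjusted p under 0.05). Endothelial markers summed to 95.9 to 109 against 88.7 to 96.5 FPKM (8 tested, 6 lower, none with an unadjusted p under 0.05). Neutrophil markers summed to 3.88 to 14.0 against 2.66 to 13.5 FPKM. By genotype entry no marker of these lists had an unadjusted p under 0.05, against 1.31% of all tested loci. The part of these cell types in the differences of Tbxas1 and Alox5ap was not tested.

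**Figure D3:**
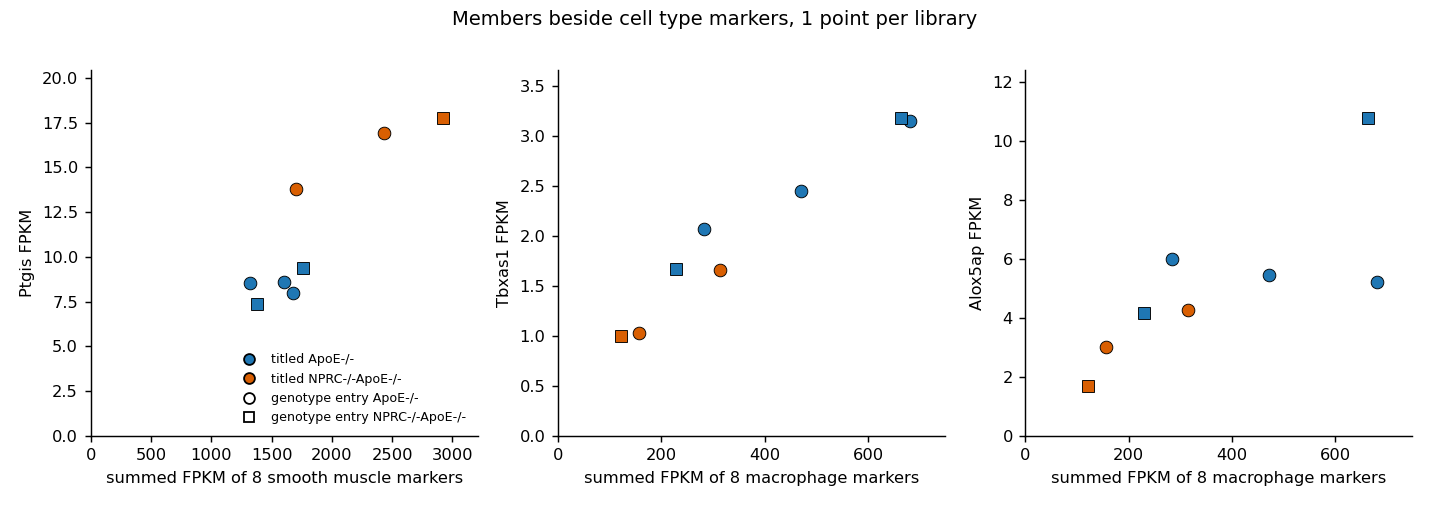
FPKM of Ptgis against the summed FPKM of 8 smooth muscle markers, and of Tbxas1 and Alox5ap against that of 8 macrophage markers, 1 point per library, coloured by title and shaped by genotype entry, axes linear from 0. Ptgis is 13.8 FPKM in NPRC-/-ApoE-/- 1 at a smooth muscle sum of 1706, where ApoE-/- 3 and 5 hold 7.97 and 9.38 FPKM.

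Counted together by title, 9 of the 10 genes were tested, 5 with a lower and 4 with a higher mean, and their median log2 fold change was -0.43 against -0.01 over all 20506 tested loci, of which 50.9% were lower. Tbxas1 and Alox5ap had an unadjusted p under 0.05 in the lower direction and Ptgis in the higher, against 7.13% and 6.51% of all tested loci. A fold change under 0.5 or over 2 with an unadjusted p under 0.05 was met by Tbxas1 and Alox5ap in the lower direction (2.39% of all loci) and by none in the higher (1.08%). An adjusted p under 0.05 was reached by none of the 9 genes and by 0.0% of all loci in edgeR. Groups without overlap were found for Tbxas1 in the lower direction (4.37% of all loci) and Ptgis in the higher (2.88%). The count of 2 genes past both limits was 0 without ApoE-/- 4, without NPRC-/-ApoE-/- 2 or without NPRC-/-ApoE-/- 3, and 4 without ApoE-/- 5 or without NPRC-/-ApoE-/- 1. DESeq2 gave 2 genes an adjusted p under 0.05, Ptgis (3.6e-08) and Tbxas1 (0.034). The share of all loci past this limit in DESeq2 is not given here, so this count cannot be set against it.

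By genotype entry, 6 of the 9 genes had a lower and 3 a higher mean, with a median log2 fold change of -0.03. None met the fold and p limits (0.463% of all loci did), none had an unadjusted p under 0.05 (1.31%) or an adjusted p under 0.05 (0.0%), and none had groups without overlap (0.97%). The largest difference was that of Ptgs2, and the smallest unadjusted p among all loci corresponded to an adjusted p of 1 in this grouping. DESeq2 also called none of the 9 genes by genotype entry, at an adjusted or an unadjusted p under 0.05.

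**Figure D4:**
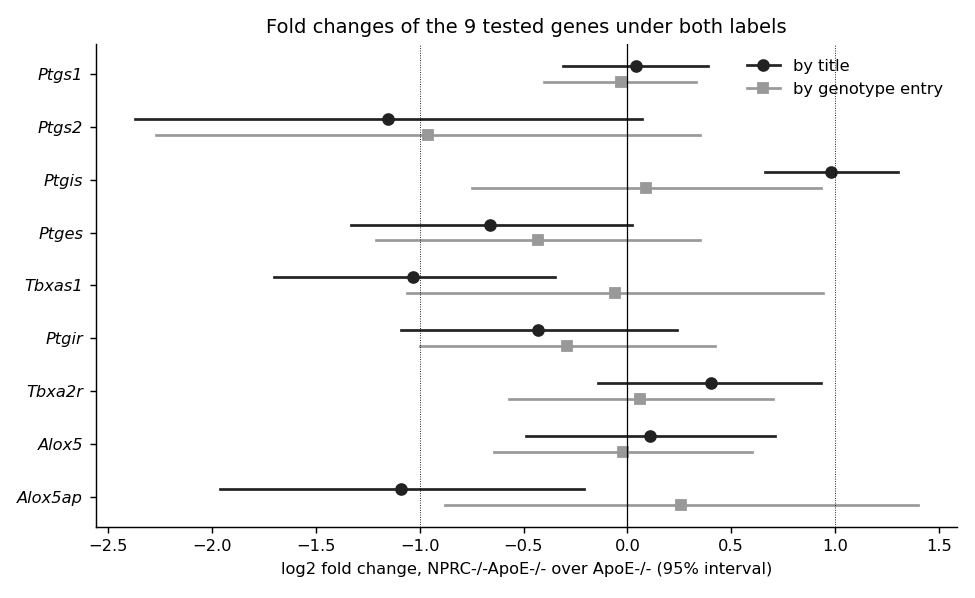
log2 fold change of the 9 tested genes (x axis, NPRC-/-ApoE-/- over ApoE-/-) with the 95% interval, by title (black circles) and by genotype entry (grey squares), with dotted lines at a 2-fold change. By title the intervals of Ptgis, Tbxas1 and Alox5ap exclude 0, and by genotype entry all 9 include it.

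Levels were compared between genes in FPKM, a scale per length. Ptgis was the highest (11.3 FPKM, mean of 8 libraries), followed by Ptgs2 (10.1), Alox5ap (5.08), Tbxa2r (5.00), Ptgs1 (4.78), Ptgir (2.26), Tbxas1 (2.03), Ptges (1.33), Alox5 (1.08) and Ptgds (0.24). Ptgis exceeded Ptgs2 in 5 of 8 libraries, Alox5ap exceeded Tbxa2r in 4, Tbxa2r exceeded Ptgs1 in 4 and Ptges exceeded Alox5 in 5, so these neighbours did not differ beyond their spread. Every library held more Ptgs1 than Ptgir and more Alox5 than Ptgds, and in both pairs the ranges were apart. The order of Ptgis and Ptgs2 depended on the library, since Ptgs2 ranked first in ApoE-/- 2 and 3, Alox5ap in ApoE-/- 4 and Ptgis in the other 5. The counts behind 1 FPKM corresponded to 22.7 times the longest coding transcript for Ptgis, 5.5 times for Tbxas1 and 1.2 to 2.67 times for the others, so the levels of these 2 genes depend on the length used. Alox5ap and Ptgs2 spanned the widest ranges, with a highest library 6.35 and 6.0 times the lowest.

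Several of the genes varied together from library to library. Over the 8 libraries, log2 CPM (counts scaled to library size) of Ptgs2 and Ptges, neighbours in the route to prostaglandin E, had a Pearson r of 0.98 and a Spearman rho of 0.95. Ptgir followed both (r = 0.91 with Ptgs2 and 0.90 with Ptges). Tbxas1 followed Alox5ap (r = 0.88, rho = 0.86) and as closely Ptgs2 (r = 0.87, rho = 0.93), Ptges (r = 0.88, rho = 0.90) and Ptgir (r = 0.84, rho = 0.88). Ptgis ran against Tbxas1 (r = -0.85, rho = -0.79) and Alox5ap (r = -0.84, rho = -0.95). Tbxa2r was closest to Ptgs1 (r = 0.79), and Alox5 had no r above 0.22 with any of the others. These are descriptions over libraries that share the group difference, tissue makeup and scaling, so no p is given.

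The named genes whose pattern was most like each gene, by Pearson r over the same 8 libraries, were as follows. Ptgis was closest to Itga3 (0.989), an integrin chain, then Myo18b (0.981), a muscle myosin, and Dysf (0.976), a membrane repair protein of muscle. Tbxas1 was closest to Scamp5 and Fermt3 (both 0.995), the latter an integrin activator of blood cells, and to the locus of Slc16a6 (0.994). Alox5ap was closest to Spast (0.984), Ly96 (0.98), the partner of the endotoxin receptor, and Tpp2 (0.976). Ptgs2 was closest to Nifk (0.992), the P2rx7 locus (0.98) and the interferon-induced Bst2 (0.979). Ptges was closest to Ch25h (0.987), a cholesterol hydroxylase of activated macrophages, Stk4 (0.986) and Nifk (0.985), which it shared with Ptgs2. Ptgir was close to Arpc1b (0.98) and the cytokine gene Lif (0.978), and Tbxa2r to Tspan9 (0.979), Yaf2 (0.973) and Pgf (0.97). Ptgs1 was closest to Icmt (0.997), Atg13 (0.983) and Sardh (0.979). For Alox5 the likeness was weaker, with Dcun1d4 (0.915) among the nearest. Each value is among the highest over all tested loci with a gene name and comes from only 8 libraries.

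The other genes of these pathways were taken from a list of 53, of which 52 were found and 33 tested, while 19 had under 1 FPKM in too many libraries. By title, 27 had a lower and 6 a higher mean, with a median log2 fold change of -0.25, where 50.9% of all tested loci were lower. Those with an unadjusted p under 0.05 were 8 lower and 2 higher (7.13% and 6.51% of all loci), 2 lower genes were also past the 2-fold limit (2.39%), and none had an adjusted p under 0.05 in edgeR. DESeq2 gave Ggt5 and Cysltr1 adjusted p-values of 0.026 and 0.028, without a share of all loci to set beside them. The groups did not overlap for Ptger4 and Ggt5, both lower (4.37%). By genotype entry, 19 were lower and 14 higher, none met any limit, and the log2 fold changes ran from -0.65 to 0.23. Among the genes named here, these values were -0.10 for Cotl1, -0.54 for Cysltr1, -0.32 for Ggt5, -0.18 for Ptger4, 0.07 for Abcc1 and 0.08 for Gpr17. The direction turned for Hpgds (0.11), Ptges3 (0.23), Slco2a1 (0.13), Mgll (-0.14), Pla2g4a (0.10) and Ltc4s (0.06). The part of cell composition in these differences was not tested either.

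In leukotriene synthesis and breakdown (8 of 9 tested, 6 lower), Cotl1, a coactosin-like protein that binds the lipoxygenase, was 39.7, 56.6, 81.1, 82.6 and 28.1 FPKM in ApoE-/- 1 to 5 and 40.3, 11.9 and 15.2 FPKM in NPRC-/-ApoE-/- 1 to 3. It was the most abundant gene of its group, and its titled groups overlapped through NPRC-/-ApoE-/- 1. As for the summed macrophage and the summed fibroblast markers, ApoE-/- 3 and 4 were highest and NPRC-/-ApoE-/- 2 and 3 lowest. Its log2 fold change was -1.38 (SE 0.51), with an unadjusted edgeR p of 0.025 and an adjusted p of 0.32. The unadjusted p was 0.052 without ApoE-/- 3 or ApoE-/- 4 and 0.089 without NPRC-/-ApoE-/- 2 or NPRC-/-ApoE-/- 3. Ggt5, which trims leukotriene C, was 0.80 to 1.44 FPKM in libraries titled ApoE-/- and 0.59 to 0.72 FPKM in those titled NPRC-/-ApoE-/- (log2 fold change -0.73, adjusted p = 0.26). Abcc1, which exports leukotriene C, had a log2 fold change of 0.35 (adjusted p = 0.34). The synthases that follow Alox5, Lta4h and Ltc4s, had log2 fold changes of -0.21 and -0.37 (adjusted p = 0.53 and 0.49).

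Among leukotriene receptors (3 of 6 tested), Cysltr1, a receptor for cysteinyl leukotrienes, was 1.21, 1.24, 1.1, 0.98 and 0.61 FPKM in ApoE-/- 1 to 5 and 0.70, 0.36 and 0.26 FPKM in NPRC-/-ApoE-/- 1 to 3. NPRC-/-ApoE-/- 1 lay just above ApoE-/- 5, and all other libraries titled NPRC-/-ApoE-/- were below the rest. Its log2 fold change was -1.22 (SE 0.35), with an unadjusted edgeR p of 0.0075 and an adjusted p of 0.27. Gpr17, a related receptor, was 3.61 to 9.29 against 7.47 to 13.3 FPKM (log2 fold change 0.82, adjusted p = 0.31). Its locus lies within Lims2 on the other strand, and without a stated strand setting the reads of the pair cannot be told apart.

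In the prostanoid groups, all 6 other synthases had a lower mean by title. Hpgds, the haematopoietic prostaglandin D synthase, was 2.43 to 4.22 FPKM in libraries titled ApoE-/- and 2.50, 1.24 and 1.27 FPKM in NPRC-/-ApoE-/- 1 to 3 (log2 fold change -0.88, adjusted p = 0.31). Prxl2b, listed under its older name Fam213b, had a log2 fold change of -0.62 (adjusted p = 0.35), and Ptges3, the most abundant of the group (13.4 FPKM), one of -0.18 (adjusted p = 0.62). Of the other prostanoid receptors, 3 of 7 were tested, and Ptger4, a prostaglandin E receptor with the highest mean of the group (2.31 FPKM, Ptger1 2.2), was 2.18 to 2.96 against 1.56 to 2.14 FPKM (log2 fold change -0.49, adjusted p = 0.29). All 6 genes of transport and breakdown had a lower mean, among them Hpgd, the enzyme that inactivates prostaglandins (-0.64, adjusted p = 0.36), and the transporter Slco2a1 (-0.41, adjusted p = 0.64), the most abundant at 7.84 FPKM. In arachidonate release (5 of 9 tested, 2 lower), Daglb had a log2 fold change of -0.68 (adjusted p = 0.33) and Mgll, the most abundant at 28.1 FPKM, one of 0.33 (adjusted p = 0.43). Pla2g4a, the cytosolic phospholipase that feeds the cyclooxygenases, was at -0.16 (adjusted p = 0.55). Ephx2 (28.6 FPKM), which opens epoxides of arachidonic acid, was at -0.18 (adjusted p = 0.82). None of the 5 other lipoxygenases passed the filter, and Alox15 was 0.12 to 0.89 FPKM in libraries titled ApoE-/- and 0.57 to 1.64 FPKM in those titled NPRC-/-ApoE-/-.

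**Figure D5:**
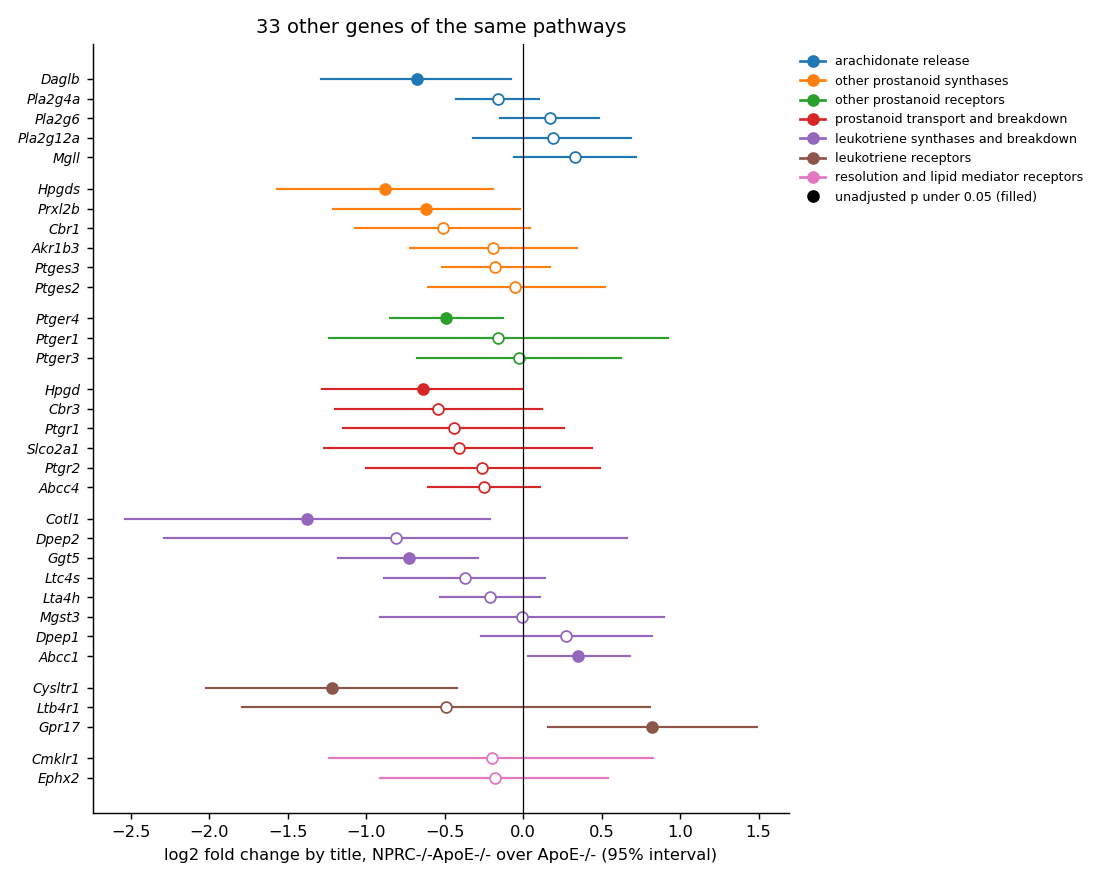
log2 fold change by title of the 33 other tested pathway genes (x axis, with 95% interval), grouped and coloured by role, with filled points for an unadjusted p under 0.05. Of the 33, 27 lie left of 0, and Cotl1 and Cysltr1 lie farthest left at -1.38 and -1.22.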

How the data were processed

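Poly(A) RNA of whole aortas was sequenced with a dUTP strand-marking kit. The authors used HISAT2 for mapping and StringTie for assembly, and the submitters' processing notes name cutadapt 1.9, FastQC and GRCm38. The deposited counts are whole numbers per assembled locus without normalization, and the deposited FPKM values were normalized by the authors to transcript length and mapped fragments. How counts were made and whether strand was used are not given in the sources used here. Columns that match no sample numbered 0.

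The genes, the pathway list and the marker lists were chosen with earlier results of these data known. All named genes are the 10 genes, the list genes with an unadjusted p under 0.05 or the highest mean FPKM of their role, and the 3 nearest genes by Pearson r, some of which are not reported here. Lta4h, Ltc4s, Pla2g4a, Ptger1 and Alox15 were added after their values were seen.

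The test covered the 20506 loci that reached 1 FPKM in 3 or more libraries, in all 8 libraries, with edgeR 4.0.16 in R 4.3.3 (TMM, quasi-likelihood test, Benjamini-Hochberg adjustment over all tested loci), by title and by genotype entry. The limit was that of the study, a fold change above 2 or under 0.5 with an unadjusted p under 0.05. The SE is the absolute log2 fold change over the square root of the F statistic. The 95% intervals use this SE and the total degrees of freedom of the fit, residual plus prior. Each library is 1 aorta sample. Total counts of 62969165 to 86693276 leave the number of libraries and a biological coefficient of variation of 0.327 as the limits of precision. Log2 CPM used a prior count of 2, and limma used log2(FPKM + 1). Alternatives were DESeq2 1.42.0, limma 3.58.1, other scalings and filters, a replicate block, and each library left out in turn. Annotation was GENCODE M21 and promoters were RefSeq.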

Additional observations from a re-analysis of the deposited data

How the results depend on the processing

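By title, the 2 genes of the 10 past the fold and p limits became 1 with limma on log2(FPKM + 0.1), 0 on log2(FPKM + 1), 4 with voom weights, 1 at a mean of at least 5 FPKM, 0 by genotype entry and 0 to 4 with a library left out. The 3 with an unadjusted p under 0.05 became 5 with DESeq2, 5 with voom weights, 0 by genotype entry and 2 to 6 with a library left out. The 0 with an adjusted p under 0.05 became 2 with DESeq2, 1 with voom weights and 0 to 1 with a library left out. The share of all loci past these limits under the other methods is not given here. The 2 pathway genes past both limits became 1 on log2(FPKM + 1), 5 with voom weights, 1 at a mean of at least 5 FPKM, 0 by genotype entry and 0 to 6 with a library left out, and the 10 with an unadjusted p under 0.05 became 2, 0 and 3 to 13 under the last 3. By genotype entry, leaving out a library gave 0 to 1 of the 10 genes past both limits, 0 to 1 with an unadjusted p under 0.05, and 0 to 2 and 0 to 3 pathway genes. The causes were not tested.

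Of the 10 genes and the pathway genes with an unadjusted p under 0.05, directions turned by title for Ptgs1 (-0.01 in the 4 libraries with matching labels and with voom weights, -0.03 by genotype entry, -0.03 to 0.12 with a library left out), Alox5 (-0.02 by genotype entry, -0.19 to 0.35 with a library left out), Alox5ap (0.26) and Hpgds (0.11), the last 2 by genotype entry. By genotype entry, leaving out a library gave -0.14 to 0.09 for Ptgs1, -0.42 to 0.34 for Ptgis, -0.63 to 0.24 for Tbxas1, -0.13 to 0.26 for Tbxa2r, -0.14 to 0.17 for Alox5 and -0.71 to 0.68 for Alox5ap, which was also -0.05 on log2(FPKM + 1).

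With the replicate number as a block over 6 libraries, 1 of the 10 genes was past both limits and 3 had an unadjusted p under 0.05, and the log2 fold changes were 0.96 for Ptgis, -1.05 for Tbxas1 and -0.96 for Alox5ap. Without the block, the same 6 libraries gave 2 and 5. Libraries of the same number did not deviate together (mean correlation -0.14, against 0.07 for libraries of other numbers). With so few libraries, centred within each titled group, this cannot decide whether the numbers pair the samples.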

Other observations

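The FPKM and the counts of Ptgis are on different lengths. A count divided by its FPKM and by the library total gives 47.8 kb for Ptgis, 22.7 times its longest coding transcript of 2107 bases. The same quotient was 5.5 for Tbxas1 (11 kb against 1990 bases) and 1.2 to 2.67 for the other 8 genes. This ordering by annotated length was chosen after seeing the data. With counts per annotated kilobase, Ptgis was again in place 1. This was fixed in advance, since it was the highest by FPKM and had the largest quotient. Ptgs2 and Alox5ap were in places 2 and 3 on both scales. Tbxas1 moved from place 7 to 4, Tbxa2r from 4 to 6 and Ptgir from 6 to 7. A comparison of 1 gene between libraries does not use this length.

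Markers of other tissues around the aorta also varied. The summed FPKM of 5 brown fat markers was 122 to 584 in libraries titled ApoE-/- and 344 to 548 in those titled NPRC-/-ApoE-/-, and that of 6 erythroid markers 345 to 3602 against 222 to 1123. Schwann cell markers summed to 10.9 to 14.5 against 7.09 to 8.78 FPKM, with 5 of 6 tested and all 5 lower by title. Skeletal muscle markers summed to 0.79 to 9.43 against 5.24 to 7.78 FPKM. Of T cell markers 1 of 6 was tested, and the sum was 2.23 to 6.96 against 1.83 to 3.28 FPKM. B cell markers summed to 2.59 to 20.8 against 1.32 to 4.44 FPKM, white adipocyte markers to 40 to 225 against 78.8 to 157, cardiomyocyte markers to 1.42 to 14.2 against 1.2 to 5.22, and mesothelium markers to 0.16 to 5.07 against 0.16 to 0.92. Their part in the results was not tested.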
